A study of Mus musculus with 6 samples.

Results

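Semaphorins and their plexin receptors were followed in 3 mouse endothelial cell lines that differ in the cadherin they are labelled as expressing. The set held 10 genes, namely 5 secreted class 3 semaphorins (Sema3a, Sema3c, Sema3d, Sema3e and Sema3f), the membrane-spanning Sema5a and Sema6d, and the plexins Plxna2, Plxnb1 and Plxnd1. A gene entered through a probe set annotated to that gene alone, and each of the 10 had 1 such probe set among the 19936 genes measured. The lines, named N, VE and VE+N, were all derived from embryonic stem cells and are labelled as expressing N-cadherin, VE-cadherin and both cadherins respectively. Each line was measured on 2 whole-transcript arrays, so there were 6 arrays. All 3 lines were cultured for 72 h in medium with 20% serum, long enough to stay confluent, and were then held without serum but with 1% albumin for 18 to 20 h. Each cadherin state is represented by 1 line, so the cadherin and anything else that sets a line apart cannot be told apart. The titles call the arrays biological replicates, and by the design text each line gave 2 RNA extracts. Nothing says that they came from separate cultures, so p-values measure only the spread between these extracts, which may be technical.

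Semaphorins are extracellular guidance cues that were first studied in growing axons and also steer endothelial cells. Plexins are their main receptors. When bound, a plexin acts through small GTPases to loosen integrin adhesion and collapse the actin cytoskeleton. Most class 3 semaphorins need a neuropilin as co-receptor, whereas Sema3e binds plexin D1, the plexin most typical of endothelium, without one.

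All values are log2 array signals, on which a difference of 1 is a 2-fold change, and the number of arrays limits their precision. Signals of different genes come from different probes and are not compared with each other. Of 14 endothelial markers 13 lay above the median gene on all 6 arrays, and the other, Vwf, lay below it on the N arrays. N-cadherin (Cdh2) followed its label, with line means of 7.67 in N, 5.86 in VE and 6.69 in VE+N. VE-cadherin (Cdh5) did not, with 7.28, 6.94 and 7.10, and no difference between lines in it passed the test (VE minus N −0.34, adjusted p = 0.0917, called lower in VE under 4 alternatives). The lines are therefore named by their labels throughout, and the directions below rest on those labels. The endothelial markers were not level across the lines. Their mean was 9.762 to 9.768 on the N arrays, 9.95 to 9.96 on the VE arrays and 10.52 to 10.65 on the VE+N arrays. Of the 14, 3 rose and 3 fell in VE against N in limma at an adjusted p below 0.05. In VE+N 6 rose and 1 fell against N, and 6 rose and 0 fell against VE. Markers of other cell types also differed between the lines. The mean over 10 fibroblast markers was 5.389 to 5.399 on the N arrays, 7.25 to 7.29 on the VE arrays and 4.31 to 4.43 on the VE+N arrays. The mean over 11 mural cell markers ran from 5.48 to 5.50, from 5.06 to 5.18 and from 4.30 to 4.41. None of the measured mural, pluripotent stem cell, glial, epithelial or cardiac and skeletal muscle markers lay above the median gene on all arrays. Of the 10 fibroblast markers 2 did, as did 2 of 9 haematopoietic and 1 of 10 neuron markers.

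Of the 10 semaphorin and plexin genes, 8 differed between at least 1 pair of lines, and only Plxna2 and Plxnd1 did not pass in any comparison. How many of all genes passed in at least 1 comparison was not counted, so the 8 has no background beside it. Shares of all genes are given for each comparison. Differences were tested with limma over all 19936 genes, and a gene was called at an adjusted p (Benjamini-Hochberg) below 0.05. In VE against N, 3 of the 10 genes rose (Sema3c, Sema3d and Sema5a) and 3 fell (Sema3a, Sema3f and Plxnb1), where 15.4% of all genes were called, 8.46% higher and 6.99% lower. In VE+N against N, 2 rose (Sema3c and Sema3d) and 5 fell (Sema3a, Sema3e, Sema3f, Sema6d and Plxnb1), where 19.1% of all genes were called, 10.2% higher and 8.91% lower. In VE+N against VE, 5 fell (Sema3c, Sema3e, Sema5a, Sema6d and Plxnb1) and 0 rose, and 0 were higher at an unadjusted limma p under 0.05 either, where 2518 of the 19936 genes were. There 10.1% of all genes were called, 4.29% higher and 5.84% lower. The median difference over the 10 genes was −0.0738, −0.475 and −0.379 in the 3 comparisons, against −0.0215, −0.00443 and 0.0294 over all genes. The comparisons share lines and are not independent of each other.

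**Figure D1:**
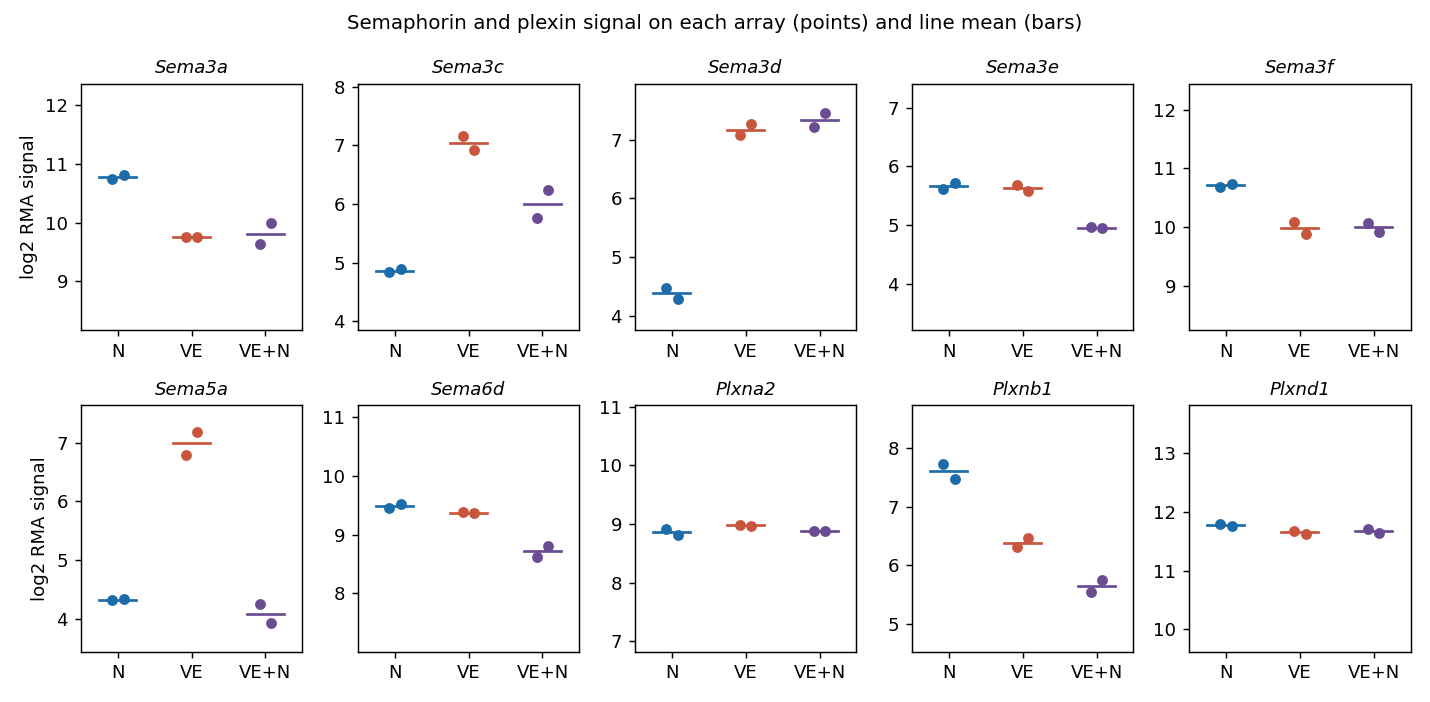
Log2 RMA signal (y axis) of the 10 genes in lines N, VE and VE+N (x axis). Points are arrays, bars are line means, and each panel spans the same 4.2 log2 units. Sema3d is low on both N arrays (4.47 and 4.29) and high on the other 4, Sema5a is high on the VE arrays only, and Plxna2 and Plxnd1 are nearly level.

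Sema3d, a secreted semaphorin that signals to endothelial cells through neuropilin 1, changed most among the 10 genes in the comparisons with N. Its signal was 4.47 and 4.29 on the N arrays, 7.07 and 7.28 on the VE arrays and 7.21 and 7.45 on the VE+N arrays. Both N arrays were far below the other 4, and the VE and VE+N arrays overlapped. The log2 difference was 2.79 ± 0.131 (SE) for VE minus N (adjusted p = 8.87e-06) and 2.95 ± 0.131 for VE+N minus N (adjusted p = 3.79e-06), 6.94-fold and 7.74-fold. Between VE+N and VE it was 0.16, with a 95% interval from −0.144 to 0.461 (adjusted p = 0.542). Both N values lay below the median gene of their arrays, so these folds are approximate.

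Sema3a, the prototype repulsive cue, which acts through neuropilin 1 and A-type plexins, went the opposite way. It gave 10.75 and 10.82 on the N arrays, 9.76 on both VE arrays, and 9.63 and 9.99 on the VE+N arrays. The N arrays were the highest, and the VE values lay between the VE+N values. It fell by 1.02 ± 0.132 (SE) in VE against N and by 0.97 ± 0.132 in VE+N against N, with an adjusted p = 0.00143 each, about the same size in both. The difference between VE+N and VE was 0.0506 (95% interval −0.255 to 0.356) and changed sign with repeated quantile normalization and without VE+N replicate 2 (−0.132).

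Sema3d and Sema3a are next to each other among the coding genes of chromosome 5 in the GRCm38.p6 assembly, and Sema3e and Sema3c lie further along the same chromosome. The windows around the starts of Sema3d and Sema3a are shown because these neighbours moved in opposite directions. Each window holds 250 bases before and 50 after the annotated start (RefSeq, GRCm38.p6), read 5′ to 3′. Sema3d is at chr5:12382916-12383215 and Sema3a at chr5:13396534-13396833, both on the + strand. Capitals mark the letters GGAA or, on the other strand, TTCC, the core that ETS factors bind, of which the endothelial regulator Erg is one.
Sema3d: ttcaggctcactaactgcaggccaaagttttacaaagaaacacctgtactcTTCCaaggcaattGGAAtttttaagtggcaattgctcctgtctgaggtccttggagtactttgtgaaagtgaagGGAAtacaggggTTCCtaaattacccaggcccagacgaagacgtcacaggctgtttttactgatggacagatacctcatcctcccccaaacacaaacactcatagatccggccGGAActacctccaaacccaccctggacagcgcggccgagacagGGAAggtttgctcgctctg
Sema3a: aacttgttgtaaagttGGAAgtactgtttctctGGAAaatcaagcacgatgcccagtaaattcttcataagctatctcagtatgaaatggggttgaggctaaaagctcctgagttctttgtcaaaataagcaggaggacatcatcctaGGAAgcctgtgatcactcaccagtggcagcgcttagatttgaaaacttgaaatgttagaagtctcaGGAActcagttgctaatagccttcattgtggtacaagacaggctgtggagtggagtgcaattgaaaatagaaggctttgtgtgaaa
The Sema3d window held 6 such matches and the Sema3a window 4. The letters occur in 96.0% of 32851 windows of this length (median 3 matches), so their presence does not set these genes apart. CpG dinucleotides numbered 8 in the Sema3d and 2 in the Sema3a window, more than in 51.4% and 14.1% of all windows. The windows of the other called semaphorins differed widely in this, with 42 CpG in Sema3c, more than in 97.0% of windows, and 23 in Sema5a. None of the windows of the 9 genes found in the table held the forkhead letters GTAAACA (both strands, present in 3.65% of windows) or TATAAA (both strands, 13.6%).

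Sema3c, which acts through both neuropilins and is also a ligand for plexin D1 complexes, was graded over the lines. The N arrays gave 4.84 and 4.89, the VE+N arrays 5.77 and 6.23 and the VE arrays 7.16 and 6.92. The 3 lines did not overlap, and VE+N lay between the lines labelled with 1 cadherin. Sema3c was higher than in N by 2.18 ± 0.162 (SE) in VE (adjusted p = 8.5e-05) and by 1.14 ± 0.162 in VE+N (adjusted p = 0.00182). VE+N was below VE by a log2 difference of −1.04 ± 0.162 (adjusted p = 0.00537). This last call was lost without VE replicate 1, at −0.92 (adjusted p = 0.0616). Both N values lay below the median gene.

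Sema3f, which prefers neuropilin 2, had 10.69 and 10.73 on the N arrays, 10.09 and 9.88 on the VE arrays and 10.07 and 9.92 on the VE+N arrays. As with Sema3a, the N arrays were highest and the other lines overlapped. Sema3f fell by 0.73 ± 0.114 (SE) in VE (adjusted p = 0.00379) and by 0.71 ± 0.114 in VE+N (adjusted p = 0.0034), each against N. The VE+N minus VE difference was 0.0151 (95% interval −0.248 to 0.279), and it changed sign with repeated quantile normalization (−0.0632) and when VE replicate 2 (−0.0876) or VE+N replicate 1 (−0.0621) was left out. Over the 6 arrays, with each gene centred on its own mean, Sema3a and Sema3f differed by a root mean square of 0.209 log2 units.

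Sema3e and Sema6d followed each other most closely of all pairs among the 10 genes, at a root mean square distance of 0.0731. Sema3e, the plexin D1 ligand that repels endothelial cells, gave 5.61 and 5.73 on the N arrays, 5.69 and 5.58 on the VE arrays, and 4.97 and 4.95 on the VE+N arrays. Sema6d, a membrane-bound ligand that signals through plexin A1, gave 9.45 and 9.52, then 9.38 and 9.36, then 8.63 and 8.81. In both genes the VE+N arrays were lowest and clear of the other 4, while N and VE lay close together. Sema3e fell in VE+N by 0.71 ± 0.101 (SE) against N (adjusted p = 0.0018) and by 0.68 ± 0.101 against VE (adjusted p = 0.0044). Sema6d fell by 0.77 ± 0.106 (adjusted p = 0.0015) and 0.66 ± 0.106 (adjusted p = 0.00635). VE minus N was −0.0335 for Sema3e (95% interval −0.268 to 0.201), a sign that turned without N replicate 2 (0.0227) or VE replicate 2 (0.0207). For Sema6d it was −0.11 (95% interval −0.359 to 0.13). The Sema6d call against VE was lost without VE replicate 1 (adjusted p = 0.0576) or VE replicate 2 (adjusted p = 0.0534), at −0.65 and −0.67. The Sema3e signal on both VE+N arrays was below their median gene.

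The windows of Sema3e and Sema6d are shown because these genes moved together. Sema3e is at chr5:14025026-14025325 and the first annotated start of Sema6d at chr2:124089719-124090018, both on the + strand of GRCm38.p6 (RefSeq). Capitals mark the palindrome CACGTG, an E-box.
Sema3e: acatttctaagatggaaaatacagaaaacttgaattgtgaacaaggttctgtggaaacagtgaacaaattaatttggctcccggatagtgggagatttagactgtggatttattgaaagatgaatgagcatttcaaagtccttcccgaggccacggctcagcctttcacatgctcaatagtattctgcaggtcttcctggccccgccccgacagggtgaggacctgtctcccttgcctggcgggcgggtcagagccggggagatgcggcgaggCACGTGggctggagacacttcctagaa
Sema6d: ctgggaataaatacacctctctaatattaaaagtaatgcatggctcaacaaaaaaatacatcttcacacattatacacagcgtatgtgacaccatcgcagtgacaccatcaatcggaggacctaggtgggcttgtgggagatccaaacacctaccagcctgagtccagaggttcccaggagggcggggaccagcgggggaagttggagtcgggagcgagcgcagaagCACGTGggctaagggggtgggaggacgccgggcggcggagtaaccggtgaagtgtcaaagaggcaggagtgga
Sema3e and Sema6d were the only ones of the 9 genes with this palindrome in a window, and 7.15% of all windows hold it. It begins at base 24 after the start in Sema3e and 23 bases before the start in Sema6d, and a second annotated Sema6d start has none. A match is a run of letters, not a measured site. The pair was picked for its signals, and the palindrome was marked out of several runs of letters searched in these windows. Whether it has any link with the signals was not tested. Which Sema6d start these lines use was not measured.

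Sema5a, a membrane-spanning semaphorin with thrombospondin repeats, was high in the VE line alone. It gave 4.32 and 4.34 on the N arrays, 6.80 and 7.18 on the VE arrays and 4.25 and 3.93 on the VE+N arrays. The VE arrays were far above the other 4, which lay below the median gene and did not overlap between N and VE+N. Sema5a was 2.66 ± 0.157 (SE) above N in VE (adjusted p = 2.46e-05, 6.33-fold) and lower in VE+N than in VE by −2.90 ± 0.157 (adjusted p = 3.52e-05, 7.47-fold), and both folds are approximate because the lower signals are dim. VE+N minus N was −0.24 (95% interval −0.601 to 0.123, adjusted p = 0.371). Fibroblast markers were also highest in VE on average. Of the 10, 8 rose and 1 fell in VE against N, and 9 fell and 0 rose in VE+N against VE, with median differences of 1.69 and −3.19. In VE+N against N, where Sema5a did not pass, 5 of them fell and 0 rose, with a median of −0.502. The collagen gene Col1a1, for example, gave 6.33 and 6.28, then 9.68 and 9.72, then 6.39 and 5.99. In bulk RNA, fewer cells of a type and less RNA per cell cannot be told apart, and the part of such cells in the Sema5a and Sema3c values was not tested.

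Among the plexins, Plxnb1, the receptor of Sema4d, which acts on RhoA through PDZ-containing exchange factors, was graded downwards. It gave 7.74 and 7.48 on the N arrays, 6.31 and 6.46 on the VE arrays and 5.55 and 5.75 on the VE+N arrays, with no overlap between lines. It was lower than in N by −1.23 ± 0.13 (SE) in VE (adjusted p = 0.000503) and by −1.96 ± 0.13 in VE+N (adjusted p = 2.99e-05). VE+N was also below VE by −0.73 ± 0.13 (adjusted p = 0.00972), a call that needed VE replicate 2 (−0.66 when it was left out, adjusted p = 0.094) and VE+N replicate 1 (−0.63, adjusted p = 0.0502). The mean over the mural cell markers had the same order of lines. Of 11 such markers 3 fell in VE against N, 6 in VE+N against N and 3 in VE+N against VE, and none rose in limma at an adjusted p below 0.05. The median differences were −0.209, −0.537 and −0.073, and the markers with the largest last step were Pdgfrb, Notch3 and Acta2. Their part in the Plxnb1 values was not tested.

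Plxnd1, the endothelial plexin that Sema3e binds, gave 11.80 and 11.76 on the N arrays, 11.68 and 11.63 on the VE arrays, and 11.72 and 11.65 on the VE+N arrays. Plxna2, which pairs with neuropilins and also binds Sema6a, gave 8.92 and 8.82, then 8.98 on both VE arrays, then 8.88 on both VE+N arrays. The VE and VE+N arrays overlapped in Plxnd1, and the N and VE+N arrays in Plxna2. For Plxnd1 the differences were −0.12 in VE (95% interval −0.345 to 0.101) and −0.0916 in VE+N (−0.315 to 0.132), each against N. For Plxna2 they were 0.10 (−0.119 to 0.328) and 0.00247 (−0.221 to 0.226), and both turned negative with median centring (−0.00389 and −0.0178). These intervals leave room for changes of up to about 0.3 log2 units, and do not show that the lines are alike.

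**Figure D2:**
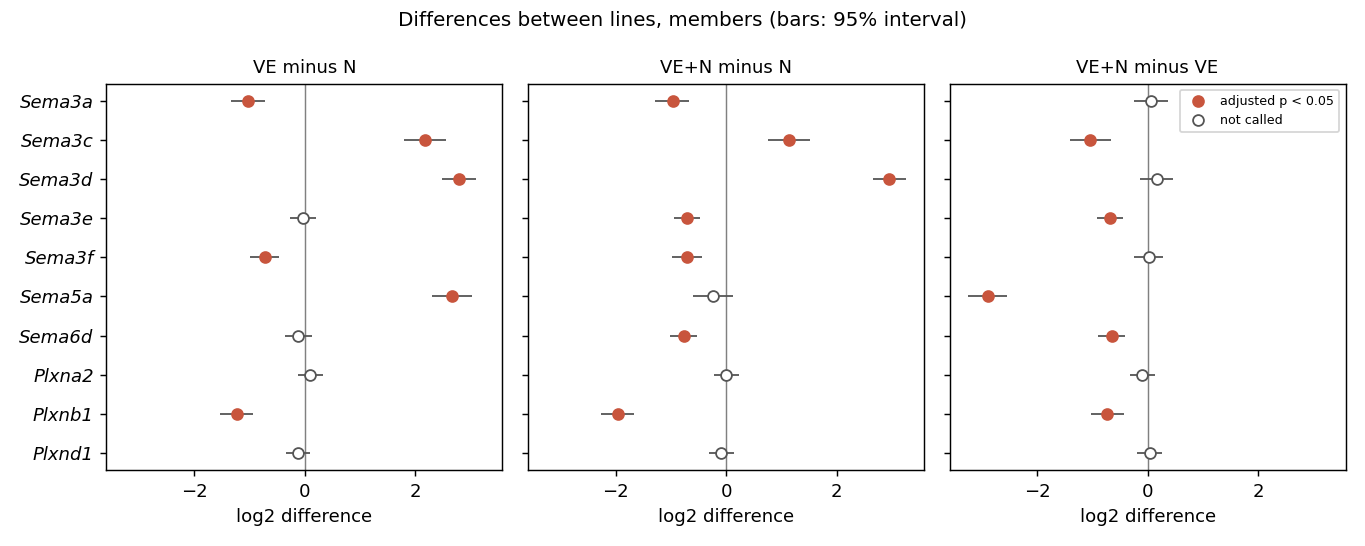
Log2 difference (x axis) of each of the 10 genes (y axis) for the 3 pairs of lines, from limma. Filled points passed an adjusted p of 0.05, open points did not, and bars are 95% intervals. Every filled point in VE+N minus VE lies to the left of 0, from Sema6d at −0.66 to Sema5a at −2.90.

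The genes nearest in pattern were sought for the 5 genes whose line means differed by over 1 log2 unit. Likeness was the root mean square distance over the 6 arrays after centring each gene on its own mean, and the 2 nearest named genes outside the family were taken. Sema5a was nearest to the collagen gene Col6a3 (0.139) and to Pdgfra (0.154), a receptor typical of fibroblasts that is itself in the marker list. Sema3d was nearest to the collagen gene Col5a2 (0.155) and the pentraxin Nptx1 (0.158), and Sema3c to the phospholipase Plcb1 (0.14) and the transcription factor Tbx15 (0.141). Plxnb1 was nearest to the sterol regulator Insig1 (0.117) and the integrin subunit Itga3 (0.127). Sema3a was nearest to Rraga (0.0547), a GTPase of nutrient sensing, and to the ubiquitin ligase Pja1 (0.0763). For scale, Sema3a itself varied about its mean by a root mean square of 0.483 and Sema3d by 1.36. These are descriptions over 3 lines.

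**Figure D3:**
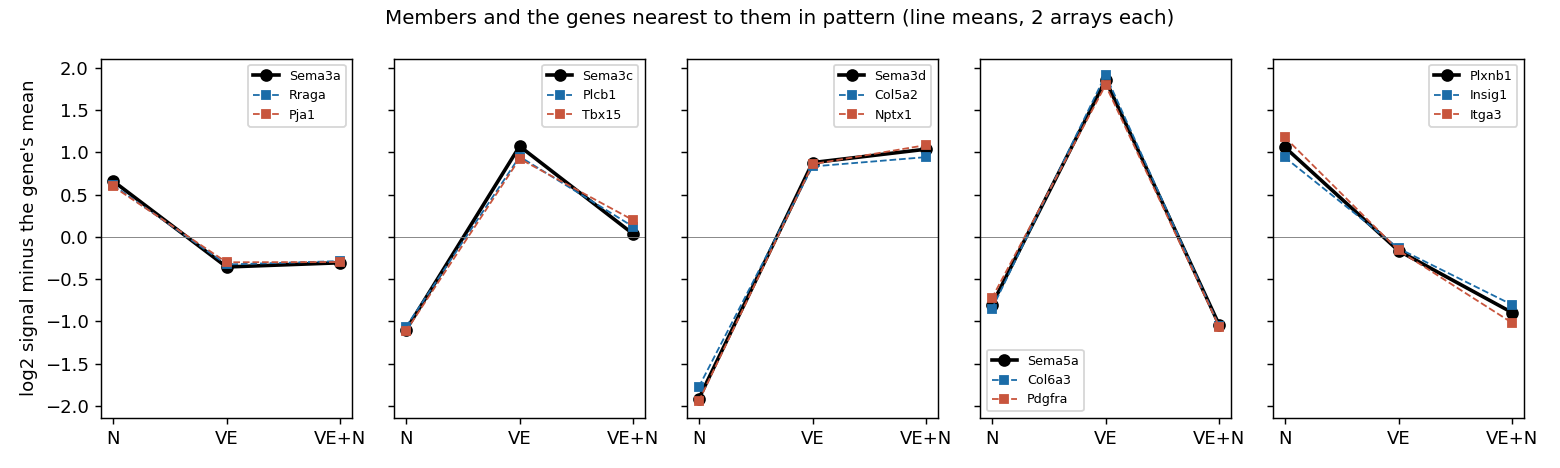
Line means of log2 signal after subtracting the gene's own mean (y axis) in lines N, VE and VE+N (x axis), for 5 of the genes (black) and the 2 genes nearest to each in pattern (blue and red). Lines join the means of 2 arrays and only guide the eye. Sema5a, Col6a3 and Pdgfra peak together in VE, and Plxnb1, Insig1 and Itga3 step down from N to VE+N.

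The rest of the family was taken from a list of 21 other semaphorins, plexins and neuropilins, all measured. In VE against N, 5 rose, 3 fell and 13 did not pass. In VE+N against N, 3 rose, 3 fell and 15 did not pass, and in VE+N against VE 1 rose, 5 fell and 15 did not pass. The medians were 0.109, −0.0369 and −0.0555. Called genes thus made up 38.1%, 28.6% and 28.6% of the list, against 15.4%, 19.1% and 10.1% of all genes, and 9 of the 21 lay below the median gene on all 6 arrays.

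Sema4c, a membrane-bound ligand of plexin B2, changed most among these semaphorins. It gave 10.98 and 11.06 on the N arrays, 9.80 and 9.75 on the VE arrays and 9.40 and 9.32 on the VE+N arrays. It was lower than in N by −1.24 ± 0.0986 (SE) in VE (adjusted p = 0.000114) and by −1.66 ± 0.0986 in VE+N (adjusted p = 1.65e-05). Both calls held under every alternative run. Its receptor gene Plxnb2 rose by 0.58 ± 0.0963 in VE against N (adjusted p = 0.005), from 8.56 and 8.52 to 9.09 and 9.14. Sema7a, a membrane-anchored semaphorin that binds plexin C1 and integrins, was highest in VE, at 5.68 and 5.44, against 4.63 and 4.49 in N and 4.51 and 4.23 in VE+N. It was higher in VE than in N by 1.00 ± 0.136 (adjusted p = 0.00192) and lower in VE+N than in VE by −1.18 ± 0.136 (adjusted p = 0.0013). Sema7a lay below the median gene on 5 of the 6 arrays, and Sema5b on all 6. Sema5b was also higher in VE than in N, by 0.64 ± 0.135 (adjusted p = 0.0156), a call lost when any of the 4 N and VE arrays was left out (adjusted p from 0.0513 to 0.0999).

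Among the A-type plexins, which serve the class 3 and class 6 semaphorins, Plxna4 rose against N by 0.86 ± 0.145 (SE) in VE and 1.14 ± 0.145 in VE+N (adjusted p = 0.00512 and 0.000978). Plxna3 fell by 0.76 ± 0.127 and 0.84 ± 0.127 (adjusted p = 0.00513 and 0.00245), with signals below the median gene on all 6 arrays. In VE the calls of Plxna4 and Plxna3 were lost without VE replicate 2, at 0.74 and −0.64 (adjusted p = 0.0559 and 0.053). Plxna1, the Sema6d receptor, rose by 0.42 in VE (adjusted p = 0.0315), a call lost with median centring (adjusted p = 0.0738) and without any of the 4 N and VE arrays (adjusted p from 0.0858 to 0.194). Plxnb3 fell against N by 0.56 in VE and 0.42 in VE+N. The first was lost without N replicate 2, VE replicate 1 or VE replicate 2 (adjusted p from 0.0805 to 0.102), and the second without any array but VE+N replicate 2 (adjusted p from 0.0676 to 0.211). The co-receptor Nrp1, shared with vascular endothelial growth factor, gave 9.24 and 9.31 in N, 9.38 and 9.33 in VE, and 9.86 and 9.998 in VE+N. It rose in VE+N by 0.65 ± 0.102 against N (adjusted p = 0.00295) and by 0.58 ± 0.102 against VE (adjusted p = 0.00974). The latter did not pass when VE replicate 1 (adjusted p = 0.0604), VE replicate 2 (0.084) or VE+N replicate 2 (0.0501) was left out. Nrp2 lay between 9.51 and 9.66 on all 6 arrays and passed in no comparison. Sema6a rose in VE+N against N by 0.44 (adjusted p = 0.0153), a call lost without N replicate 1 (adjusted p = 0.109), N replicate 2 (0.0857) or VE+N replicate 2 (0.0506).

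Several of these smaller calls were lost in fits with 1 array fewer, while the differences kept their direction. In VE against N the 8 calls became 6 and 5 without N replicate 1 and 2, and 5 and 3 without VE replicate 1 and 2. In VE+N against VE the 6 calls became 3 without either N array, 1 without either VE array, 1 without VE+N replicate 2 and 5 without VE+N replicate 1. With median centring they became 4, with 2 higher and 2 lower in place of 1 and 5. There Sema4c, Sema5b, Plxna1 and Plxnb2 had fallen by 0.41, 0.55, 0.53 and 0.41, and each was lost in at least 3 of the fits that left out an array.

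**Figure D4:**
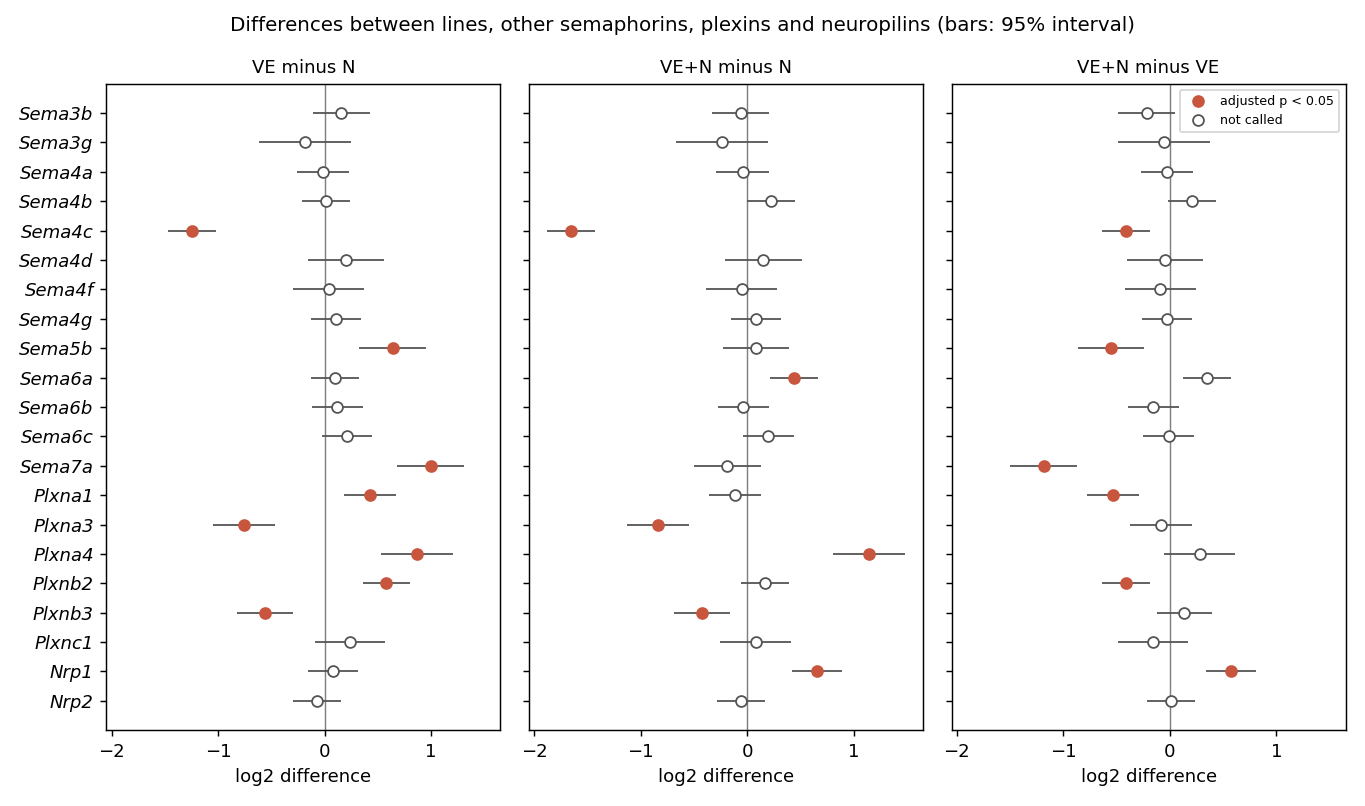
Log2 difference (x axis) of the 21 other semaphorins, plexins and neuropilins (y axis) in the 3 comparisons, from limma. Filled points passed an adjusted p of 0.05, open points did not, and bars are 95% intervals. Sema4c lies far to the left in both comparisons with N, and Nrp1 lies to the right in both comparisons of VE+N.

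Downstream of the receptors, 36 of 37 listed plexin partners were measured, among them small GTPases, their regulators and collapsin response mediators. In VE against N 8 rose, 4 fell and 24 did not pass, in VE+N against N 9 rose, 4 fell and 23 did not pass, and in VE+N against VE 3 rose, 3 fell and 30 did not pass. These calls made up 33.3%, 36.1% and 16.7% of the partners, against 15.4%, 19.1% and 10.1% of all genes. Of the 36 partners, 29 lay above the median gene on all arrays, so these shares are not matched for signal. Without the dimmest 50% of genes, 16, 14 and 9 of 31 partners were called, against 3530, 4216 and 2597 of 9968 genes. The shares then lay close together in VE+N against N and in VE+N against VE, and stayed apart in VE against N. With median centring 7 partners rose and 8 fell in VE against N, and 5 rose and 2 fell in VE+N against VE. Medians were 0.00315, 2.5e-05 and 0.00663.

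The largest changes were in GTPases. Mras, a relative of R-Ras, gave 5.08 and 5.05 on the N arrays, 8.31 and 8.08 on the VE arrays and 9.10 and 8.86 on the VE+N arrays. It rose against N by 3.13 ± 0.125 (SE) in VE (adjusted p = 4.21e-06) and 3.91 ± 0.125 in VE+N (adjusted p = 7.55e-07). A second Mras probe set, not used in the test, gave 5.48 and 5.45, then 7.43 and 7.33, then 8.34 on both VE+N arrays. The order of lines was the same, with a smaller step from N to VE but not from VE to VE+N. Mras was also 0.78 higher in VE+N than in VE (adjusted p = 0.00626), a call lost without VE replicate 2 (adjusted p = 0.0642). Rnd3, an atypical small GTPase that opposes RhoA, gave 7.48 and 7.49 in N, 6.28 and 6.65 in VE, and 3.47 and 3.96 in VE+N. It was lower in VE+N than in N by −3.77 ± 0.179 (adjusted p = 5.17e-06) and than in VE by −2.75 ± 0.179 (adjusted p = 8.56e-05). Its fall of 1.02 in VE against N was lost without VE replicate 1 (−0.84, adjusted p = 0.0635). The VE+N values of Rnd3 and both N values of the tested Mras probe set lay below the median gene, so the sizes of these changes are approximate.

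Crmp1, a collapsin response mediator that relays Sema3a signals to the cytoskeleton, fell against N by 1.19 ± 0.104 (SE) in VE and 1.52 ± 0.104 in VE+N (adjusted p = 0.000189 and 3.62e-05), from 8.54 and 8.41 to 7.27 and 7.30 and to 7.02 and 6.89. Rras2 rose by 1.05 ± 0.096 in VE+N against N (adjusted p = 0.000177). The receptor kinase gene Met, a partner of B-type plexins, rose by 0.96 ± 0.14 in VE against N (adjusted p = 0.00269). Between VE+N and VE, Sh3bp1, a GTPase-activating protein that binds plexin D1, fell by 0.74, and the kinase gene Fyn rose by 0.48. Both were lost without VE replicate 1, VE replicate 2 or VE+N replicate 2 (adjusted p from 0.0656 to 0.149). Rhoa and Rac1, the general targets of plexin signalling, gave 12.06 to 12.18 and 10.31 to 10.46 over the 6 arrays and passed in no comparison. The 12, 13 and 6 partners called became between 7 and 9, between 5 and 9, and between 1 and 4 when an array of a compared line was left out.

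Analysis of variance, the test that the series text names, was set beside these results. With Benjamini-Hochberg adjustment it called 1276, 1867 and 311 of all 19936 genes in the 3 comparisons. Of the 10 semaphorin and plexin genes it called 3, 4 and 1 in place of 6, 7 and 5. The calls left were Sema3c, Sema3d and Sema5a in VE against N, Sema3d, Sema3e, Sema6d and Plxnb1 in VE+N against N, and Sema5a in VE+N against VE. At that text's own thresholds, an unadjusted p of 0.05 and a change over 2-fold, 751, 909 and 493 of all genes passed. Of the 10 genes, 5, 3 and 2 passed. The same numbers passed over 2-fold with the limma call, where 3.81%, 4.6% and 2.52% of all genes did.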

How the data were processed

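The log2 values were deposited as the series' value table. Per the submitters' processing notes, the authors used Partek 6.3 and its RMA method, in which background correction, quantile normalization and probe set summary compress differences at low signal. The log2 scale was read from the values, and no probe positions or detection calls were used. Of 35556 probe sets, 21789 carried 1 gene symbol. Symbols were updated through Entrez identifiers or accessions, and the brightest probe set stood for each of 19936 genes. No filter on signal was applied. Lines were compared with limma 3.58.1 (R 4.3.3) over all 6 arrays, with 3 residual and 4.89 prior degrees of freedom, with Benjamini-Hochberg adjustment for each comparison on its own. On simulated data for VE minus N (19936 genes), 99.85% of genes raised and 99.25% of those lowered by 1 log2 unit were recovered. False calls made up 7.46% of the calls, above the 5% aimed at. Each of 20 simulations changed 200 genes, against 3079 called in the real comparison. Normal noise was drawn with each gene's moderated variance, so recovery in the real data may differ.

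Named genes are the 10 members, called genes of the family list, up to 4 called partners a comparison with the largest change and the nearest genes in pattern. Rhoa, Rac1, Nrp2, Col1a1, Vwf, Pdgfrb, Notch3 and Acta2 were named after their values were seen. The members and lists were chosen with earlier results of these data known. The alternatives were fits on 4 arrays, a replicate block, a trended robust prior, median centring, a repeat of quantile normalization, leaving out the 25% or 50% of genes with the lowest signal, the mean of probe sets, analysis of variance, a 2-fold threshold and each array left out. Leaving out an array leaves its line with 1, which is then assumed to vary like the arrays of the other lines.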

Additional observations from a re-analysis of the deposited data

How the results depend on the processing

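The number of semaphorin and plexin genes called was 6 in VE minus N, 7 in VE+N minus N and 5 in VE+N minus VE, the order used here. The same numbers came from the fits on 4 arrays, with a trended robust prior, with median centring, with repeated quantile normalization, without the dimmest 25% and with the mean of probe sets. Of 444 member values under the alternatives, 416 kept their direction and side of the threshold, 15 lost a call and 13 changed sign, all 13 among differences that were not called. Many of these values could not change direction. The fits on 4 arrays, the replicate block, the prior, leaving out dim genes, the mean of probe sets and analysis of variance keep each member's difference. Leaving out an array of the third line repeats the fit on 4 arrays. The 416 is therefore not a measure of how stable the calls are. Analysis of variance called 3, 4 and 1 members, 2, 3 and 0 of the other family, 7, 7 and 0 of the partners, and 1276, 1867 and 311 of all genes. Its 0 calls in VE+N minus VE stand beside 8 family genes and 13 partners at its unadjusted p under 0.05. The adjusted limma calls were 6 each. At an unadjusted limma p under 0.05, 2 family genes were higher and 5 lower, and 5 partners were higher and 5 lower. The cause of the 0 calls was not tested. Requiring over 2-fold gave 5, 3 and 2 members, 1, 2 and 1 of the other family, 3, 4 and 1 partners, and 760, 918 and 502 genes. Without the dimmest 50%, where Sema3e and Sema5a drop out, 3 members were called in VE+N minus VE and 5 other family genes in VE minus N. On the 4 arrays compared, 3 other family genes were called in VE+N minus VE.

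Leaving out 1 array gave 1688 to 3356, 2243 to 3800 and 966 to 2049 calls over all genes. Members called in VE+N minus VE ran from 3 to 5, with 3 without VE replicate 1 or VE replicate 2. Other family calls ran from 3 to 8 in VE minus N and from 1 to 5 in VE+N minus VE. Partner calls ran from 7 to 12, from 5 to 10 and from 1 to 4. The changes of sign were Sema3e in VE minus N (0.0207 and 0.0227 without VE replicate 2 and N replicate 2, lowest −0.0897 and highest 0.0227 over the arrays left out) and Plxna2 in VE minus N (−0.00389 with median centring). Plxna2 in VE+N minus N gave −0.0178 with median centring, −0.00992 with repeated quantile normalization and −0.0486 to 0.0535 as each array was left out. In VE+N minus VE, repeated quantile normalization gave −0.0246 for Sema3a, −0.0632 for Sema3f and −0.00476 for Plxnd1. There, leaving out 1 array gave −0.132 to 0.233 for Sema3a, −0.0876 to 0.118 for Sema3f and −0.0065 to 0.0675 for Plxnd1.

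The arrays of different lines share replicate numbers. With the replicate block, 6, 7 and 5 members and 3056, 3864 and 2055 genes were called, and no member's call changed. Deviations of same-numbered arrays correlated at −0.00504 (N and VE), 0.123 (N and VE+N) and 0.0689 (VE and VE+N) across genes, and no label says that a number marks a shared batch. Median centring shifted all log2 differences by −0.108, −0.0203 and 0.0879 in the 3 comparisons. The share of higher calls over all genes moved from 54.8% to 34.9% and from 42.3% to 60.8%. Members called kept their counts of 3 higher and 3 lower, 2 and 5, and 0 and 5.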
